A study of Mus musculus with 8 samples.

Results

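Interferon-stimulated genes are the genes that a cell switches on after an interferon binds its receptor. Here 31 of them were followed, chosen by symbol as genes induced by type I interferon and their regulators, out of the 55291 genes of the count table. All 31 were present and all passed the filter on low counts that left 16630 genes tested. RNA was sequenced from CD8+ T cells purified from the spleens of naïve mice with a magnetic isolation kit. The 4 ATF4OE samples are titled ATF4 overexpression, with ATF4 Tg/Tg as their genotype, and the other 4 samples have the genotype WT. The series' design text names the mice otherwise, as E8IcreATF4Tg/Tg and ATF4Tg/Tg, with the transgene in both names and the Cre in only 1, so WT stands here for what the samples are called and not for a known genotype. E8I is an enhancer of the Cd8a gene that drives Cre in mature CD8+ T cells. The sources used here do not give age, sex, the construct or the number of mice.

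In the canonical pathway, type I interferon binds the receptor made of IFNAR1 and IFNAR2, and the kinases JAK1 and TYK2 then phosphorylate STAT proteins, STAT2 among them. These join IRF9 in a complex that binds the interferon-stimulated response element in the promoters of target genes. The products sense foreign RNA or DNA, block its translation, degrade it or restrain the response itself. T cells keep many of these genes at a low resting level without infection. ATF4, the overexpressed factor, is the transcription factor of the integrated stress response and activates genes of amino acid uptake and synthesis.

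The libraries held between 93478686 and 125974143 estimated counts each. The deposited columns are named in different ways: replicates 3 and 4 of each group have a hyphen before the number, and replicates 1 and 2 have none. These are called library sets here, and the sources used here do not say what the naming stands for. In 4 libraries (ATF4OE replicates 1 and 2, WT replicates 1 and 4) genes with 1 to 4 counts were fewer, 868 to 1043 of them, against 1439 to 1844 in the other 4. Atf4 itself was at 445, 427, 228 and 212 counts per 1e+06 (CPM) in ATF4OE replicates 1 to 4 and at 286, 308, 165 and 165 CPM in WT replicates 1 to 4. The groups overlapped across the sets, and Atf4 was higher in ATF4OE than in WT within each set, by 0.41 on the log2 scale in replicates 3 and 4 and by 0.59 in replicates 1 and 2. Of 16 genes listed for the integrated stress response, 15 were called higher in ATF4OE over the 8 libraries. Of all tested genes 9.16% were called higher. The 1 listed gene that was not called was Atf4 itself. The values 0.41 and 0.59 of Atf4 are also the lowest of this list within the sets. Over the 8 libraries the log2 fold change of Atf4, at 0.51, was again the lowest on the list. Without the 4 libraries with few low counts Atf4 turned negative, at -0.11, the lowest of the list there too. In that comparison the library sets are unequally divided between the groups.

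The defining markers of CD8 T cells were abundant in every library, with a summed level of 5176 to 5272 CPM in ATF4OE and 6427 to 6730 CPM in WT, and 6 of their 8 genes were called lower in ATF4OE. Markers of other cells were higher in ATF4OE. Called higher were 10 of 13 monocyte and macrophage genes, 7 of 10 tested B cell genes, 6 of 9 tested neutrophil genes, 8 of 10 tested erythroid genes, 5 of 8 tested plasmacytoid dendritic cell genes (with 1 lower) and 3 of 9 NK cell genes. Of all tested genes 9.16% were called higher and 4.89% lower. Without the 4 libraries with few low counts, 0 of 8 CD8 T cell genes were called. Called higher there were 10 of 13 monocyte and macrophage genes, 9 of 11 erythroid genes and 4 of 10 neutrophil genes. For B cells it was 1 of 10, for plasmacytoid dendritic cells 1 of 8 and for NK cells 0 of 9. Of all genes tested in that fit 7.29% were called higher and 1.94% lower. Its library sets are unequally divided between the groups. In summed level, monocyte and macrophage genes stood at 159 to 343 CPM in ATF4OE against 30.7 to 89.5 CPM in WT, and B cell genes at 119 to 305 CPM against 38.2 to 72.5 CPM. Siglech, which defines plasmacytoid dendritic cells, the main producers of type I interferon, stayed between 0.123 and 0.636 CPM in ATF4OE and between 0.0565 and 0.325 CPM in WT. Bulk RNA cannot tell fewer cells of a type from less RNA per cell. The part of these other cells in the results on interferon-stimulated genes was not tested.

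Promoter sequence was available for 23 of the 31 genes, as windows of 300 bases (250 before and 50 after the transcription start) from RefSeq on GRCm38.p6. The response element was searched as GAAA, any 2 bases and GAAA again, and the gamma-activated site, the element of the interferon gamma response, as TTCNNNGAA, each on both strands. Of the 23 genes, 12 held the response element (52.2%), against 3.99% of the 27025 gene symbols with a window, and 7 held the gamma-activated site (30.4%), against 9.55%. The C/EBP-ATF element TGATGNAA, the kind of site ATF4 binds with a C/EBP partner, was found for 0 of the 23 genes and for 4.51% of all symbols. With only 23 genes, 0 is near that share. A match describes letters and is not evidence of binding. Shown are the 200 bases before the start of Ifit1, Ifit3, Rsad2, Oas1a and Isg20. For Ifit1, Ifit3 and Rsad2, picked after their values were seen, the group difference passed the test for a difference between the library sets. Oas1a and Isg20 were called in the same direction by several of the fits described here. All but Isg20 were also picked for holding the response element, so its presence in them was fixed in advance. Ifit2, likewise called in the same direction by several fits, is not shown. Its window holds a gamma-activated site and no response element. Capitals mark matches to either motif, on either strand, and each sequence is written along its gene's own strand.
Ifit1, chr19:34640689-34640888, strand +: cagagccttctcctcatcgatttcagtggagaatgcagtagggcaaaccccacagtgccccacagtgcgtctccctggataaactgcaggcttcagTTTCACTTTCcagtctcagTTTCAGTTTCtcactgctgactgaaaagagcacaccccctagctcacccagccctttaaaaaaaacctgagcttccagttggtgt
Ifit3, chr19:34583329-34583528, strand +: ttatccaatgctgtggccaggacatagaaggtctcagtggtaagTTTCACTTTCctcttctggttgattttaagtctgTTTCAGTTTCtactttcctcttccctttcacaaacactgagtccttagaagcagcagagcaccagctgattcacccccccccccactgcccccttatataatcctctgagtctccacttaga
Rsad2, chr12:26456453-26456652, strand -: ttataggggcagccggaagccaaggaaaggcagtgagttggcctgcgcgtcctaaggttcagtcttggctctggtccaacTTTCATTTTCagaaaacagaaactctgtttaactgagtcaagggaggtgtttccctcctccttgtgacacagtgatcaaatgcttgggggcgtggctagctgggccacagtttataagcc
Oas1a, chr5:120907526-120907725, strand -: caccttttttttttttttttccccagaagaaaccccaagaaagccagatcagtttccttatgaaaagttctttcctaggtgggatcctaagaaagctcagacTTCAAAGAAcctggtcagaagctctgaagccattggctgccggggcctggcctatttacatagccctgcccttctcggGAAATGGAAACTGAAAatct
Isg20, chr7:78913224-78913423, strand +: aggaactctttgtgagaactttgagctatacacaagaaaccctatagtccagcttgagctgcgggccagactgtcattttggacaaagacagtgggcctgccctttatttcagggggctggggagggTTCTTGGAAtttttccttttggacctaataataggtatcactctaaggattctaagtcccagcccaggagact
Ifit1 and Ifit3 each hold 2 separate response elements, 104 and 85 bases upstream of the start in Ifit1 and 156 and 122 in Ifit3. Rsad2 holds 1, at 120 bases. In Oas1a 2 matches overlap, beginning 20 and 14 bases upstream, and a gamma-activated site begins at 98. Isg20, shown for 1 of its 3 RefSeq starts, has no response element in this window and a gamma-activated site 73 bases upstream.

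Per kilobase of annotated exon, Irf1 had the highest level of the 31 genes, 77.7 CPM per kb in ATF4OE and 86.0 in WT. Samhd1 followed at 58.4 and 54.3, then Bst2 at 47.1 and 50.9. The lowest were Mx2, at 2.03 CPM per kb in ATF4OE and 1.61 in WT, and Ifi44, at 0.41 and 0.25. The genes lie on 13 chromosomes, with 5 Oas genes on chromosome 5 and 4 Ifit genes in 1 cluster on chromosome 19.

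Over all 8 libraries few of the 31 interferon-stimulated genes passed the test between ATF4OE and WT. Only Isg20, an RNA exonuclease, was called higher, and only Ifit2, which binds RNA and restrains translation, was called lower, at a Benjamini-Hochberg adjusted p below 0.05 in edgeR's quasi-likelihood test. That is 2 of 31, or 6.45%, against 14.1% of all tested genes (9.16% higher and 4.89% lower). The median log2 fold change of the 31 genes was 0.14, that of all tested genes -0.02, and 24 of the 31 were above 0. The groups did not overlap for 8 genes with ATF4OE higher (Ifih1, Dhx58, Zbp1, Oas1a, Oas3, Isg20, Samhd1 and Ifi44) and for Ifit2 with ATF4OE lower, or 9 of 31, against 22% of all tested genes (13.3% higher and 8.66% lower). Without the 4 libraries with few low counts, 0 of 31 genes were called (6 had an unadjusted p below 0.05), against 9.23% of all genes tested (7.29% higher and 1.94% lower). That leaves ATF4OE replicates 3 and 4, both with a hyphen, against WT replicate 2 without and WT replicate 3 with one, so in this comparison genotype and library set cannot be fully told apart.

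**Figure D1:**
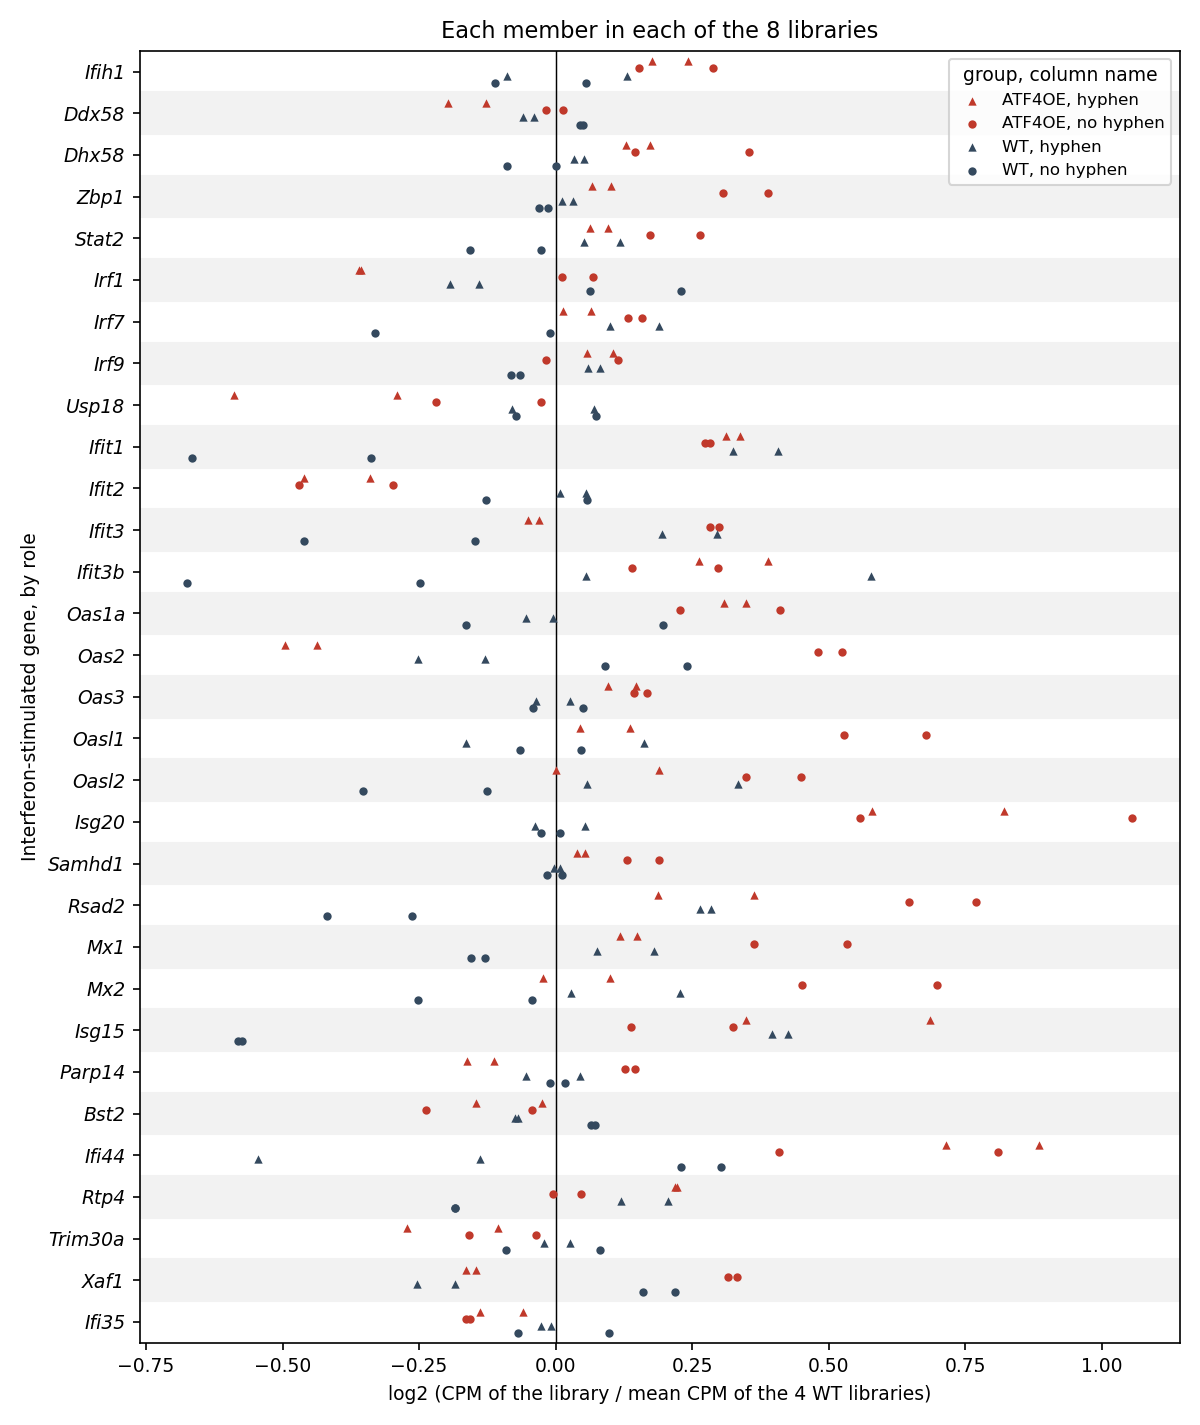
Level of each of the 31 genes in each of the 8 libraries, as the log2 ratio of its CPM to the mean of the 4 WT libraries. Each point is 1 library (red ATF4OE, dark blue WT, triangles for column names with a hyphen, circles for those without). Isg20 has all 4 ATF4OE points right of the WT points and Ifit2 all 4 left of them, while for Ifit1 and Isg15 the 2 WT circles stand apart on the left.

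With the replicate number as a block, 7 genes were called, against 27.2% of all tested genes (13.7% higher and 13.5% lower). Higher in ATF4OE were Isg20 (log2 fold change 0.75, adjusted p = 0.0015), Oas1a (0.33, adjusted p = 0.026), Zbp1 (0.22, adjusted p = 0.041) and Oas3 (0.14, adjusted p = 0.044). Lower were Ifit2 (-0.39, adjusted p = 0.0038), Irf1 (-0.15, adjusted p = 0.027) and Trim30a (-0.14, adjusted p = 0.043). Oas1a, Zbp1, Oas3, Irf1 and Trim30a, called here and not over the 8 libraries without the block, differed by at most 0.33 in size on the log2 scale. With the library set as the block, 5 genes were called, Isg20, Oas1a, Zbp1 and Isg15 higher and Ifit2 lower, against 25.6% of all tested genes (14% higher and 11.6% lower).

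The transcription factors that carry the interferon signal did not pass the test over 8 libraries. Stat2, a subunit of the complex that binds the response element, was at 88.3, 94.2, 81.9 and 83.7 CPM in ATF4OE replicates 1 to 4 and at 70.3, 76.9, 81.3 and 85.1 CPM in WT (log2 fold change 0.15 ± 0.08, SE, adjusted p = 0.28). Irf9, the DNA-binding partner of that complex, was at 152, 139, 151 and 146 CPM in ATF4OE against 134, 132, 146 and 148 CPM in WT (0.07 ± 0.07, adjusted p = 0.62). For both, WT replicates 1 and 2 were the 2 lowest of the 8 libraries, and the groups overlapped through WT replicate 4, for Irf9 also through WT replicate 3. Irf7, which induces the interferon genes themselves, was at 124, 127, 115 and 119 CPM in ATF4OE and at 90.2, 113, 122 and 129 CPM in WT (0.09 ± 0.11, adjusted p = 0.66). Irf1, a factor induced most strongly by interferon gamma, was at 345, 358, 267 and 266 CPM in ATF4OE and at 357, 401, 299 and 310 CPM in WT (-0.15 ± 0.13, adjusted p = 0.56). In both groups Irf1 was lower in replicates 3 and 4, and within each set every ATF4OE library but replicate 2 lay under both WT libraries. Usp18, which strips ISG15 from proteins and damps signalling at the receptor, was at 22.7, 19.9, 18.9 and 15.4 CPM in ATF4OE against 24.3, 22.0, 24.3 and 21.9 CPM in WT (-0.27 ± 0.12, adjusted p = 0.20). Its ATF4OE libraries were the lower ones except replicate 1, which lay among the WT libraries.

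Of the 4 nucleic acid sensors none was called over 8 libraries. Zbp1, a sensor of left-handed nucleic acid that can trigger cell death, was at 151, 160, 128 and 131 CPM in ATF4OE against 120, 121, 123 and 125 CPM in WT (0.22 ± 0.08, adjusted p = 0.11). Every ATF4OE library was above every WT library, with the wider gap in replicates 1 and 2. The RNA helicases Ifih1 (32.2 ± 1.38 CPM in ATF4OE, 27.7 ± 2.25 in WT, SD, n = 4 each, adjusted p = 0.12) and Dhx58 (30.0 ± 2.24 and 26.1 ± 1.12, adjusted p = 0.15) also did not overlap between the groups. Ddx58, which encodes RIG-I, was at 176 ± 11.8 CPM in ATF4OE and 186 ± 7.36 in WT (adjusted p = 0.55).

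The IFIT proteins bind viral RNA and block its translation, and their genes did not move together. Ifit2 was at 40.5, 45.6, 40.7 and 44.3 CPM in ATF4OE and at 58.3, 51.3, 58.2 and 56.4 CPM in WT (-0.39 ± 0.08, adjusted p = 0.0071). All ATF4OE libraries lay under all WT libraries, in both sets. Ifit1 was at 37.9, 37.6, 38.6 and 39.4 CPM in ATF4OE and at 24.6, 19.6, 41.3 and 39.0 CPM in WT (0.30 ± 0.21, adjusted p = 0.44). The 4 ATF4OE libraries were nearly level, and WT replicates 1 and 2 stood low. Ifit3 was at 62.2, 62.9, 49.4 and 50.1 CPM in ATF4OE and at 37.2, 46.2, 58.5 and 62.8 CPM in WT (0.13 ± 0.16, adjusted p = 0.69). Here ATF4OE was the higher group in replicates 1 and 2 and the lower group in replicates 3 and 4. Ifit3b, a close copy of Ifit3, averaged 9.63 ± 0.68 CPM in ATF4OE and 7.96 ± 2.94 CPM in WT (SD, n = 4 each, adjusted p = 0.55). Reads that fit both copies are divided between them by a model, and the summed copies gave a log2 fold change of 0.15 (adjusted p = 0.64).

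The Ifit cluster spans 99.3 kb of chromosome 19 on GRCm38 (chr19:34550694-34650009), in the order Ifit2, Ifit3, Ifit1bl1, Ifit3b, Ifit1bl2 and Ifit1. The 2 Ifit1bl genes, which are not among the 31, are on the minus strand and the 4 Ifit genes on the plus strand. Ifit1bl1 was called lower in ATF4OE within each set, at -1.09 in replicates 3 and 4 (adjusted p = 0.00014) and -0.49 in replicates 1 and 2 (adjusted p = 0.012), a difference between sets that was called as well (adjusted p = 0.032). Neighbours in this cluster thus differed in direction within replicates 1 and 2, where Ifit3 and Ifit1 were called higher beside Ifit1bl1 called lower.

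**Figure D2:**
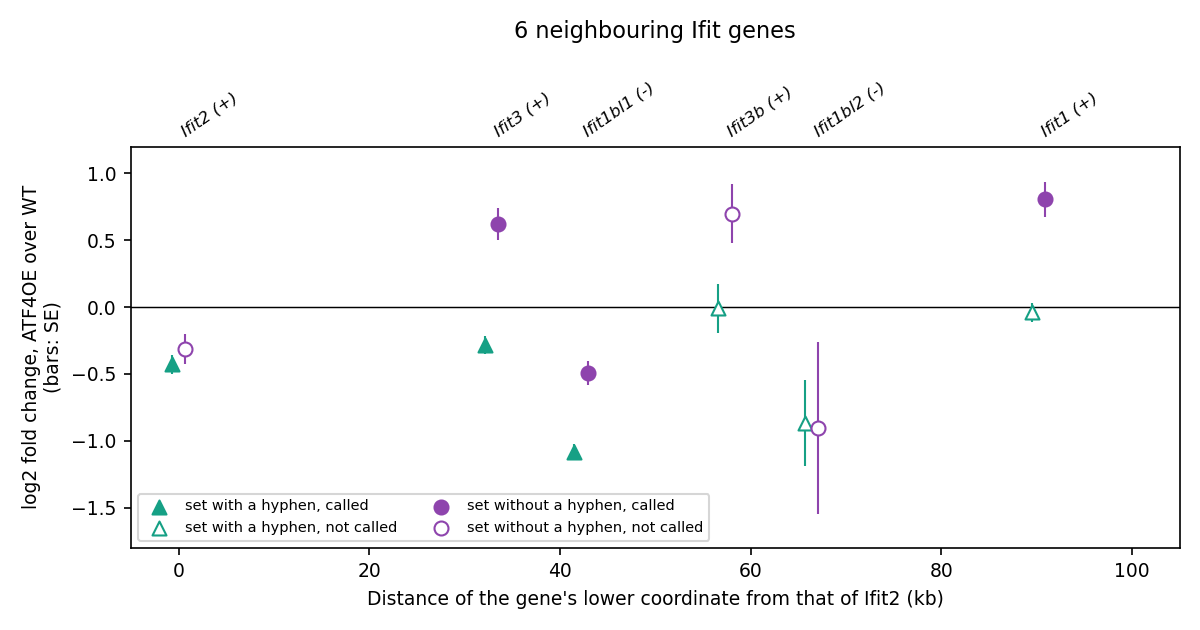
Log2 fold change of ATF4OE over WT (bars, SE) for the 6 genes of the Ifit cluster by distance in kb from Ifit2, in the library set with a hyphen (triangles) and without (circles), drawn slightly apart for each gene, with filled symbols for adjusted p below 0.05. Ifit2 and Ifit1bl1 lie under 0 in both sets, and Ifit3 and Ifit1 lie above 0 only in the set without a hyphen.

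Oligoadenylate synthetases make the messenger that activates RNase L, which cleaves RNA. Oas1a was at 15.5, 17.6, 16.8 and 16.4 CPM in ATF4OE against 11.8, 15.2, 12.8 and 13.2 CPM in WT (0.33 ± 0.11, adjusted p = 0.085). The groups did not overlap, but the nearest libraries, ATF4OE replicate 1 and WT replicate 2, were close. When the counts of the near copies Oas1a, Oas1b, Oas1c and Oas1g were summed, the log2 fold change was -0.07 (adjusted p = 0.53), opposite in direction to Oas1a alone. Oas3 was at 91.1, 92.7, 91.4 and 88.1 CPM in ATF4OE against 85.4, 80.1, 84.0 and 80.4 CPM in WT (0.14 ± 0.06, adjusted p = 0.17), a small gap without overlap. Oas2 averaged 33.8 ± 12.6 CPM in ATF4OE and 31.5 ± 4.84 CPM in WT (SD, n = 4 each, adjusted p = 0.87), with an ATF4OE mean of 22.8 CPM in replicates 3 and 4 and 44.7 CPM in replicates 1 and 2. The OAS-like genes, whose products resemble the synthetases, both had ATF4OE replicates 1 and 2 as their highest libraries. Oasl1 was at 15.8, 17.6, 12.1 and 11.3 CPM in ATF4OE and at 11.3, 10.5, 12.3 and 9.80 CPM in WT (0.37 ± 0.16, adjusted p = 0.18). Oasl2 was at 26.6, 28.6, 20.9 and 23.8 CPM in ATF4OE and at 16.4, 19.2, 21.8 and 26.4 CPM in WT (0.26 ± 0.15, adjusted p = 0.35).

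Among enzymes acting on nucleic acids and nucleotides, Isg20 had the highest log2 fold change of the 31 genes. It was at 16.8, 23.7, 17.0 and 20.1 CPM in ATF4OE, or 19.4 ± 3.25, and at 11.2, 11.5, 11.8 and 11.1 CPM in WT, or 11.4 ± 0.33 (SD, n = 4 each). The log2 fold change was 0.77 ± 0.13 (adjusted p = 0.0035), with all ATF4OE libraries above all WT libraries. Isg20 (-0.14 for the difference between sets, adjusted p = 0.87) was higher in ATF4OE in both sets. Without the 4 libraries with few low counts its log2 fold change was 0.67 and its adjusted p 0.054, and that of Ifit2 was -0.37 with an adjusted p of 0.12. Samhd1, which degrades deoxynucleotides, averaged 534 ± 26.1 CPM in ATF4OE and 497 ± 4.35 CPM in WT, with an adjusted p of 0.33. Rsad2 encodes viperin, which makes a nucleotide that ends viral RNA chains. Rsad2 was at 16.6, 18.0, 12.1 and 13.6 CPM in ATF4OE and at 7.91, 8.82, 12.7 and 12.9 CPM in WT (0.51 ± 0.20, adjusted p = 0.13). WT replicates 1 and 2 were low, ATF4OE replicates 1 and 2 were high, and the other 4 libraries lay close together between them.

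The dynamin-like GTPase Mx1 was at 30.3, 26.9, 23.2 and 22.7 CPM in ATF4OE and at 18.8, 19.2, 23.7 and 22.1 CPM in WT (0.30 ± 0.12, adjusted p = 0.15). Mx2 averaged 7.35 ± 1.70 CPM in ATF4OE and 5.82 ± 0.80 CPM in WT (SD, n = 4 each, adjusted p = 0.34). Both genes had their highest libraries in ATF4OE replicates 1 and 2. Isg15, a ubiquitin-like protein that is joined to other proteins, was at 19.0, 16.7, 24.4 and 19.3 CPM in ATF4OE and at 10.2, 10.2, 20.0 and 20.4 CPM in WT (0.39 ± 0.25, adjusted p = 0.39). As for Ifit1, only WT replicates 1 and 2 stood apart. Parp14, an ADP-ribosyltransferase, was at 194 ± 21.3 CPM in ATF4OE and 193 ± 5.59 CPM in WT (adjusted p = 0.98), and Bst2, which tethers budding virus to the cell surface, at 42.5 ± 2.87 and 45.9 ± 2.56 CPM (adjusted p = 0.43).

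Of the remaining effectors, Ifi44 was at 2.67, 2.02, 2.50 and 2.81 CPM in ATF4OE against 1.79, 1.88, 1.04 and 1.38 CPM in WT (0.72 ± 0.28, adjusted p = 0.13), without overlap at a low level. Trim30a, a restrainer of Toll-like receptor signalling in mice, was at 167, 154, 159 and 142 CPM in ATF4OE against 181, 161, 174 and 169 CPM in WT (-0.14 ± 0.07, adjusted p = 0.26). Rtp4, a chaperone of receptor trafficking, averaged 49.8 ± 4.03 CPM in ATF4OE and 45.7 ± 6.45 CPM in WT (SD, n = 4 each, adjusted p = 0.55). Xaf1, which promotes cell death, averaged 53.6 ± 10.2 CPM in ATF4OE and 49.8 ± 8.19 CPM in WT (adjusted p = 0.75). Its 2 lower libraries in either group were replicates 3 and 4. Ifi35 averaged 57.4 ± 1.93 CPM in ATF4OE and 62.7 ± 3.13 CPM in WT (adjusted p = 0.26).

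Within the library sets the picture differed. In replicates 3 and 4, Ifi44, Isg20 and Oas1a were called higher in ATF4OE and Ifit2 and Ifit3 lower, or 5 of 31 genes against 22.3% of all tested genes (14.3% higher, 8% lower). In replicates 1 and 2, 9 of 31 genes were called higher and 0 lower (Rsad2, Isg20, Isg15, Ifit1, Oasl2, Oasl1, Mx1, Ifit3 and Zbp1), against 9.82% of all tested genes (6.75% higher and 3.07% lower). The median log2 fold change of the 31 genes was -0.0041 in replicates 3 and 4 and 0.33 in replicates 1 and 2, beside medians of 0.0061 and -0.0059 for all tested genes. Each of these fits has 2 libraries against 2, so its p-values rest on a spread estimated with the help of all genes.

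**Figure D3:**
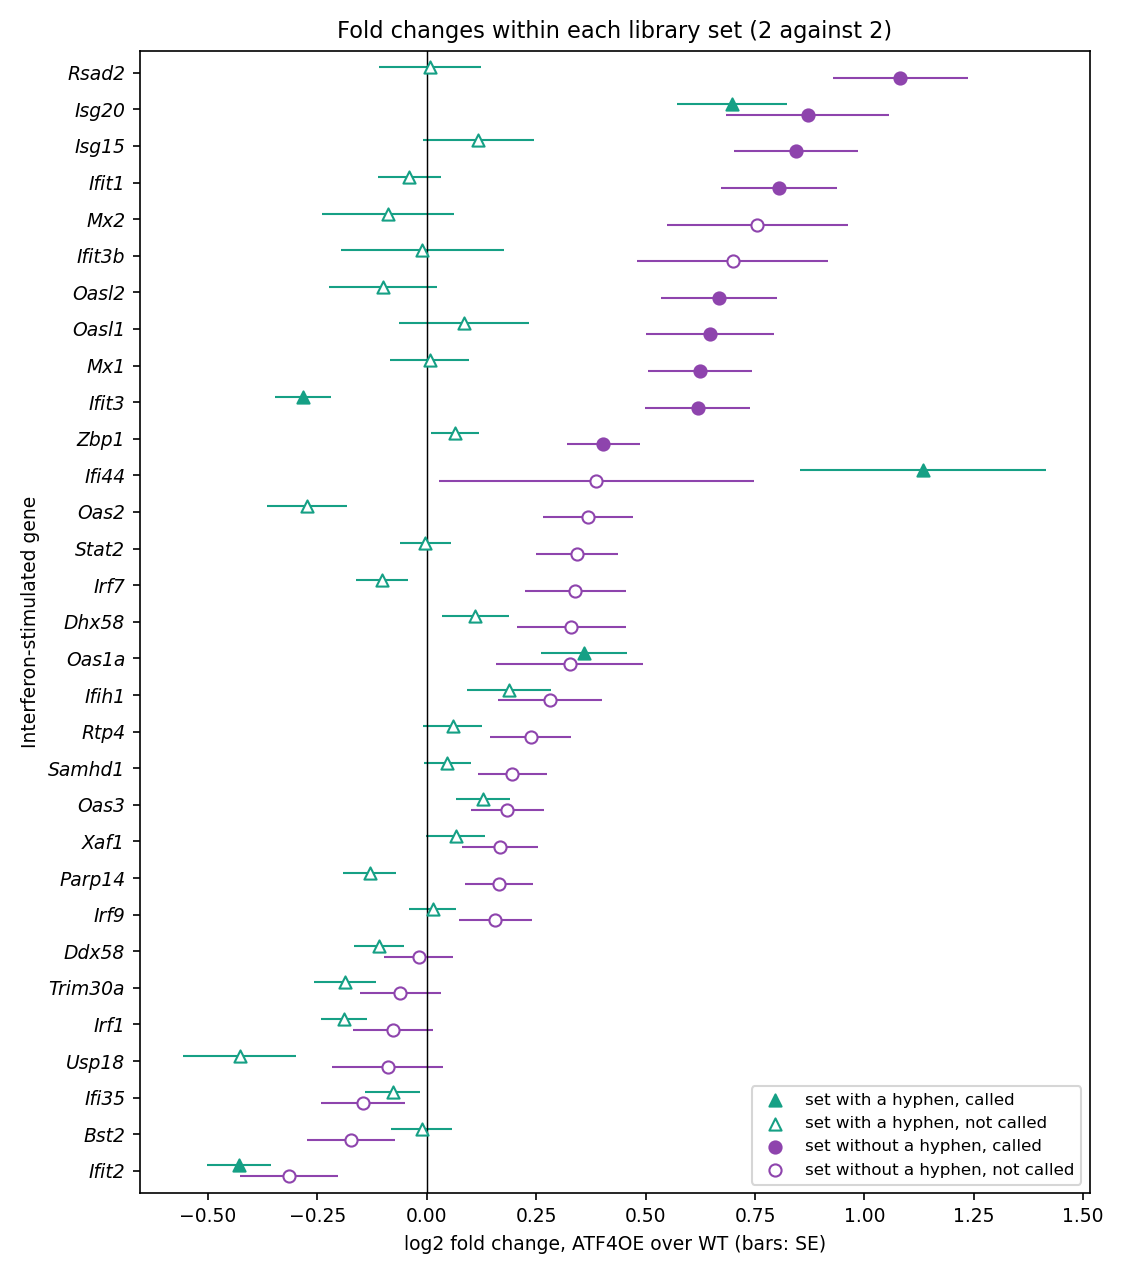
Log2 fold change of ATF4OE over WT (bars, SE) for the 31 genes in the library set with a hyphen (triangles) and in the set without (circles), 2 libraries a group in each, ordered by the value in the set without a hyphen, with filled symbols for adjusted p below 0.05. The circles reach 1.08 for Rsad2, while the filled triangles are Ifi44 at 1.13, Isg20 at 0.70 and Oas1a at 0.36 above 0, and Ifit2 at -0.43 and Ifit3 at -0.28 below it. Usp18, at -0.43, lies as low without a call.

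Rsad2 had a log2 fold change of 0.01 in replicates 3 and 4 (adjusted p = 0.98) and of 1.08 in replicates 1 and 2 (adjusted p = 0.0038). Ifit1 was at -0.04 (adjusted p = 0.76) and 0.80 (adjusted p = 0.0079) in the same order, Isg15 at 0.12 (adjusted p = 0.57) and 0.84 (adjusted p = 0.0086). Ifit3 was at -0.28 in replicates 3 and 4 (adjusted p = 0.026) and 0.62 in replicates 1 and 2 (adjusted p = 0.016), called in opposite directions. With the counts of Ifit3b added, the value in replicates 3 and 4 was -0.24 (adjusted p = 0.056), and that in replicates 1 and 2 was 0.63 (adjusted p = 0.015). Isg20 was called in both sets, at 0.70 (adjusted p = 0.012) and 0.87 (adjusted p = 0.024). Ifit2 was at -0.43 (adjusted p = 0.0096) and -0.32 (adjusted p = 0.13).

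The count in replicates 1 and 2 depended on single libraries. It was 8 without ATF4OE replicate 1 (against 7.76% of all genes tested in that fit), 5 without ATF4OE replicate 2 (6.45%), 3 without WT replicate 1 (7.5%) and 7 without WT replicate 2 (8.76%), with Ifit1, Isg15 and Rsad2 called each time. In replicates 3 and 4 the genes called numbered 3 without ATF4OE replicate 3 (against 14.6% of all genes tested), 2 without ATF4OE replicate 4 (14.6%), 4 without WT replicate 3 (22.9%) and 4 without WT replicate 4 (22%). Isg20 and Ifit2 were called each time there. Ifit3 lost its call in replicates 3 and 4 without ATF4OE replicate 3 (-0.28, adjusted p = 0.093), ATF4OE replicate 4 (-0.30, adjusted p = 0.069) or WT replicate 4 (-0.24, adjusted p = 0.094), and in replicates 1 and 2 without WT replicate 1 (0.47, adjusted p = 0.059). The group left with 1 library was assumed to vary like the other.

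The difference between the sets was tested as an interaction of genotype and library set. It was called for Ifit1 (-0.81 ± 0.15, adjusted p = 0.044), Ifit3 (-0.87 ± 0.14, adjusted p = 0.024) and Rsad2 (-1.04 ± 0.18, adjusted p = 0.031), as replicates 3 and 4 minus replicates 1 and 2. That is 3 of 31 genes, or 9.68%, against 0.998% of all tested genes (0.523% positive and 0.475% negative). Of the 31 genes 27 had a negative difference, with a median of -0.19 beside 0.04 for all tested genes. Nearest after these came Oas2 at -0.61 (adjusted p = 0.071). Of the 31 genes 0 were called without any 1 of the 4 ATF4OE libraries or without WT replicate 3 or WT replicate 4, and over all genes tested the share called in those 6 fits was also lower, at 0.326% to 0.577%. Ifit1 and Ifit3 were called without WT replicate 1 (0.676% of all genes tested), and Ifit3, Irf7 and Rsad2 without WT replicate 2 (1.18%). Over the 8 fits the difference stayed negative, from -0.99 to -0.66 for Ifit1, from -1.04 to -0.73 for Ifit3 and from -1.13 to -0.97 for Rsad2. The summed counts of Ifit3 and Ifit3b kept the call (-0.84, adjusted p = 0.034).

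**Figure D4:**
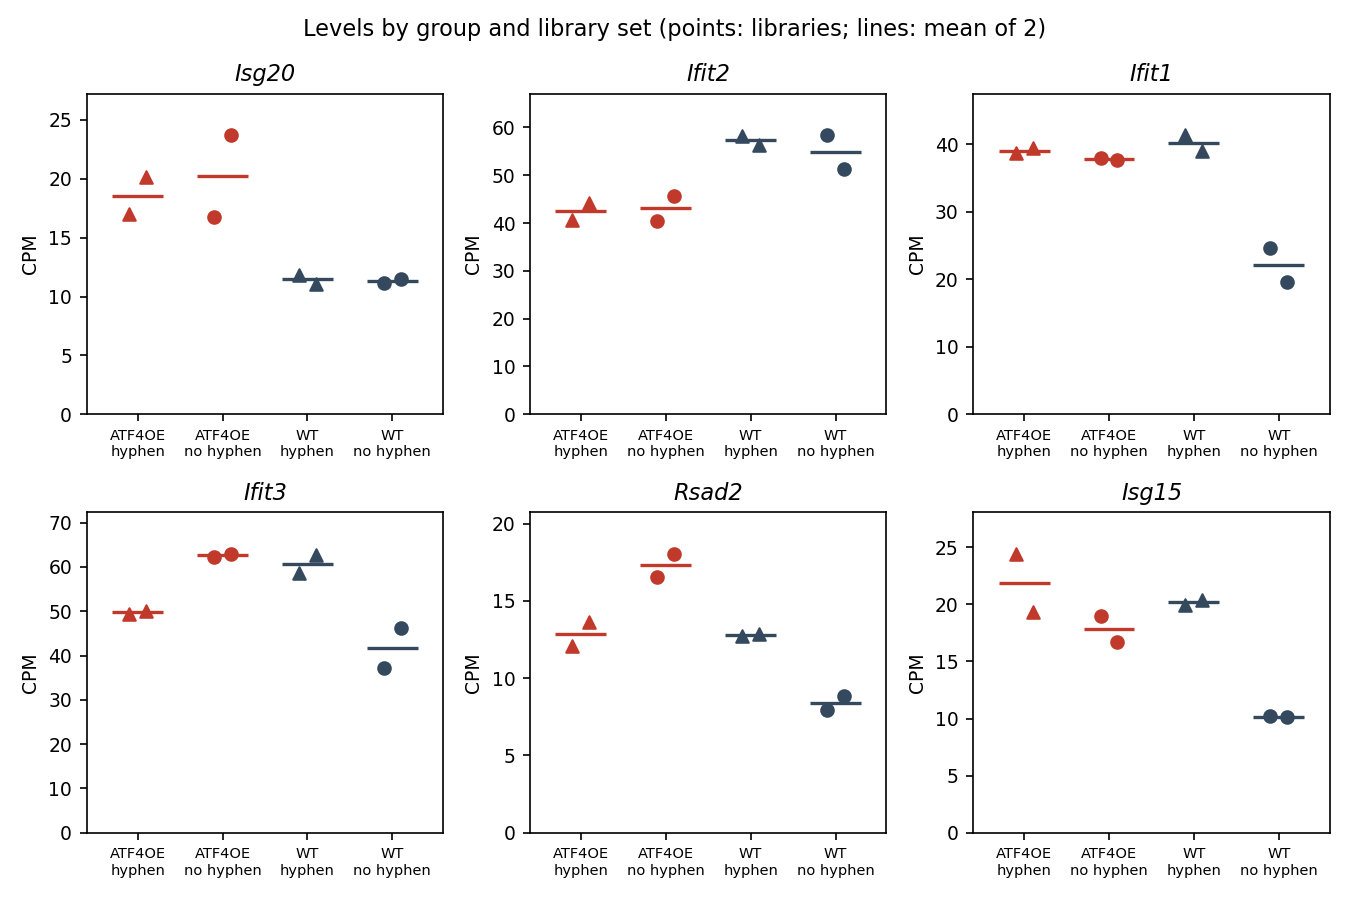
CPM of 6 genes by group and library set, on axes that start at 0 (points, libraries, and lines, the mean of 2). For Isg20 and Ifit2 the groups separate in both sets, while for Ifit1, Rsad2 and Isg15 the WT libraries without a hyphen are the lowest points, at 19.6 to 24.6, 7.91 to 8.82 and 10.2 CPM.

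Set against set within WT, replicates 3 and 4 were higher than replicates 1 and 2 for 6 of the 31 genes and lower for 3, against 12.2% of all tested genes (5.71% higher and 6.54% lower). Higher were Isg15 (0.99, adjusted p = 0.0015), Ifit1 (0.86, adjusted p = 0.0011), Ifit3b (0.79, adjusted p = 0.040), Rsad2 (0.61, adjusted p = 0.014), Ifit3 (0.54, adjusted p = 0.0080) and Rtp4 (0.35, adjusted p = 0.013). Lower were Xaf1, Oas2 and Irf1, at -0.41, -0.36 and -0.32. Within ATF4OE, replicates 3 and 4 were lower than replicates 1 and 2 for 8 genes and higher for 0, against 19.2% of all tested genes (10.9% higher and 8.32% lower). These were Oas2 (-0.97, adjusted p = 0.00016), Oasl1 (-0.51), Xaf1 (-0.48), Rsad2 (-0.43), Irf1 (-0.40), Ifit3 (-0.33), Parp14 (-0.27) and Zbp1 (-0.26). Rsad2 and Ifit3 were thus called in opposite directions in WT and in ATF4OE, while Irf1, Oas2 and Xaf1 were lower with the hyphen in both.

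Markers of other cells also differed between the sets. All 9 NK cell genes were called higher in ATF4OE in replicates 1 and 2, and 3 of 9 in replicates 3 and 4. Of all tested genes 6.75% were called higher in replicates 1 and 2 and 14.3% in replicates 3 and 4. NK cell genes summed to 140 and 134 CPM in ATF4OE replicates 3 and 4 against 104 and 109 CPM in WT replicates 3 and 4. In replicates 1 and 2 the sums were 402 and 343 CPM in ATF4OE against 29.2 and 29.6 CPM in WT. Erythroid genes ran the other way, at 288 and 275 CPM in ATF4OE against 14.5 and 12.0 CPM in WT in replicates 3 and 4, and at 84.1 and 81.5 against 14.4 and 16 CPM in replicates 1 and 2. The difference between sets was negative for all 9 NK cell genes, each of them called, and positive for all 10 erythroid genes tested, 2 of them called. Of all tested genes 0.998% were called in that test. For monocyte and macrophage genes the sums were 337 and 343 CPM in ATF4OE against 89.5 and 85 CPM in WT in replicates 3 and 4, and 159 and 160 against 30.7 and 31.1 CPM in replicates 1 and 2. Plasmacytoid dendritic cell genes summed to 296 and 309 CPM in ATF4OE against 291 and 307 CPM in WT in replicates 3 and 4, and to 340 and 355 against 302 and 290 CPM in replicates 1 and 2. Siglech made up only a very small part of these sums, so they do not follow that marker. Of the 8 plasmacytoid dendritic cell genes tested, 5 were called higher and 1 lower in replicates 3 and 4 (median log2 fold change 1.50). In replicates 1 and 2, 4 were called higher and 0 lower (1.51). The part of these cells in the difference between sets was not tested.

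**Figure D5:**
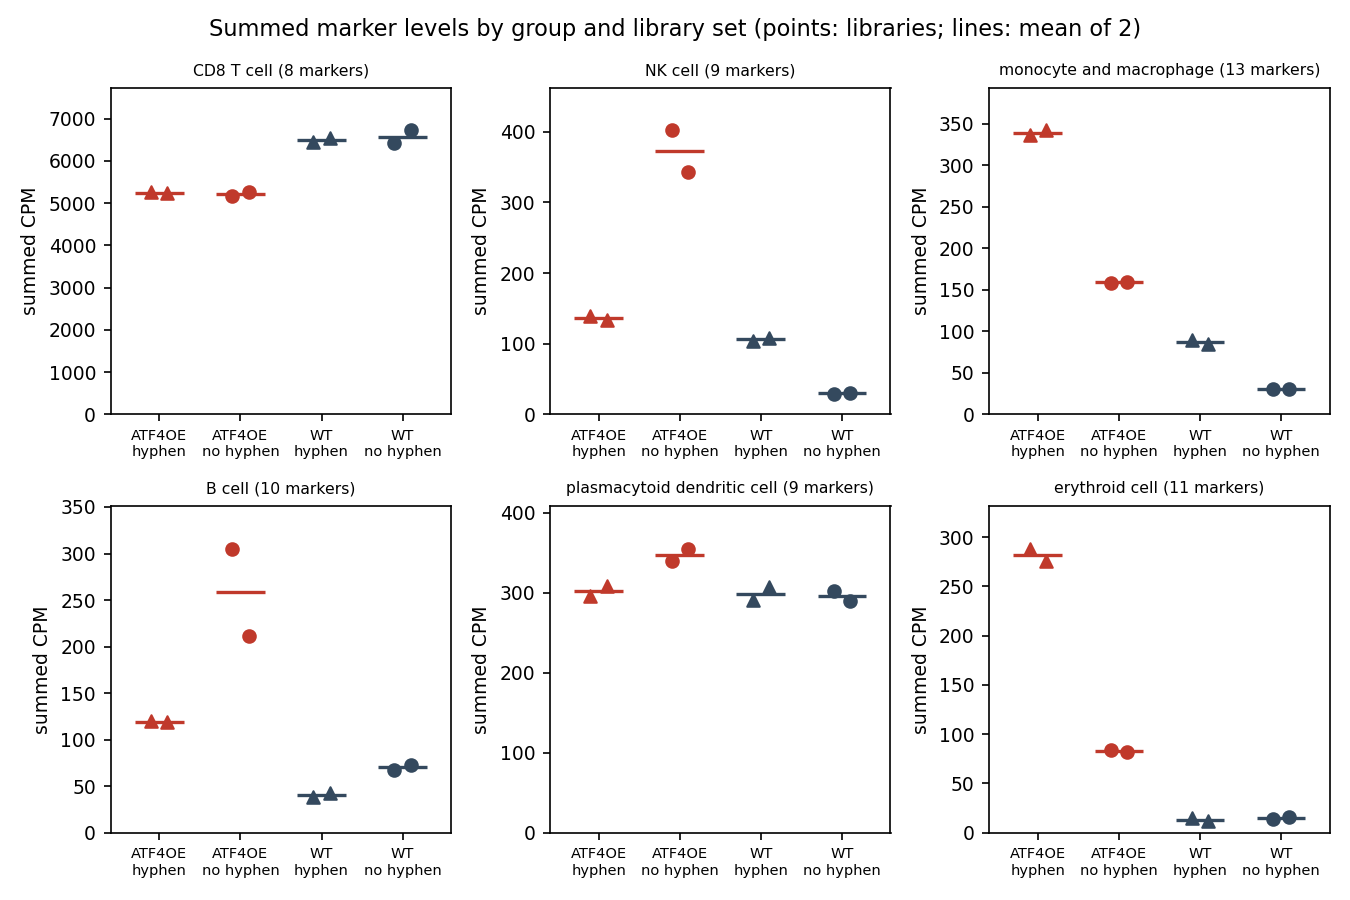
Summed CPM of marker genes for 6 cell types by group and library set, on axes that start at 0 (points, libraries, and lines, the mean of 2). NK cell markers are highest in the ATF4OE libraries without a hyphen, at 343 to 402 CPM, and lowest in the WT libraries without a hyphen, at 29.2 to 29.6 CPM. The plasmacytoid dendritic cell sum comes almost wholly from markers other than Siglech.

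Upstream of these genes, few interferon transcripts were counted. Of 21 interferon genes 18, among them Ifnb1, had 0 counts in all 8 libraries, which allows a level of up to 0.024 to 0.0339 CPM, depending on the library. Ifnab had 2 counts in ATF4OE replicate 3 and 18 in WT replicate 3, and Ifnz 4 in ATF4OE replicate 1 and 12 in WT replicate 3. Ifng, the type II interferon of T and NK cells, was at 28.1, 25.8, 5.18 and 6.28 CPM in ATF4OE and at 9.15, 8.44, 1.42 and 2.85 CPM in WT. It was not called over 8 libraries (1.58 ± 0.75, adjusted p = 0.22), was called higher with the replicate block (1.56, adjusted p = 0.00010), and stood at 0.22 (adjusted p = 0.90) without the 4 libraries with few low counts, where the library sets are unequally divided between the groups. Within both sets Ifng was called higher in ATF4OE, at 1.43 in replicates 3 and 4 (adjusted p = 0.030) and 1.65 in replicates 1 and 2 (adjusted p = 0.00024). Replicates 3 and 4 were lower than replicates 1 and 2 in both groups, at -2.24 in ATF4OE and -2.04 in WT on the log2 scale.

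Of 10 tested receptor, kinase and STAT genes, 0 were called higher and 1 lower over 8 libraries, or 10% against 14.1% of all tested genes. The lower one was Il10rb, a chain of the interferon lambda receptor (74.5 ± 2.76 CPM in ATF4OE, 91.0 ± 4.66 in WT, SD, n = 4 each, -0.29, adjusted p = 0.016). Ifnar1 was at 148 ± 13.0 CPM in ATF4OE and 168 ± 12.6 CPM in WT (-0.19, adjusted p = 0.19). With the replicate block Ifngr1 was called higher (0.22, adjusted p = 0.0053) and Il10rb, Ifnar1 and Jak1 lower (at -0.29, -0.19 and -0.21), or 40% against 27.2% of all tested genes. Of 15 negative regulators of cytokine signalling 2 were called higher and 0 lower over 8 libraries, or 13.3% against 14.1% of all tested genes. The higher ones were Cish (14.3 ± 1.33 CPM in ATF4OE, 7.90 ± 1.26 in WT, 0.85, adjusted p = 0.0039) and Socs2 (4.65 ± 0.39 and 0.70 ± 0.56, 2.72, adjusted p = 0.0081). Both restrain STAT5 signalling downstream of other cytokines. Socs1, which restrains the interferon receptors, was at -0.12 (adjusted p = 0.73).

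Of 9 other interferon regulatory factors, 3 were called higher and 1 lower over 8 libraries, or 44.4% against 14.1% of all tested genes. The higher ones were Irf8 (39.7 ± 8.07 CPM in ATF4OE, 11.2 ± 1.58 in WT, 1.83, adjusted p = 8.6e-05), Irf5 (9.26 ± 1.89 and 2.23 ± 0.66, 2.05, adjusted p = 0.00097) and Irf4 (21.8 ± 12.3 and 8.03 ± 2.07, 1.44, adjusted p = 0.033). Irf8 and Irf5 are abundant in B cells and myeloid cells, and markers of B cells and of monocytes and macrophages were higher in ATF4OE. The part of those cells in these calls was not tested. Of 19 tested nucleic acid sensing genes, 3 of the endosomal route were called higher, Unc93b1 (26.3 ± 2.44 CPM in ATF4OE, 9.54 ± 0.86 in WT, 1.47, adjusted p = 3.6e-05), Tlr9 (1.64, adjusted p = 0.010) and Tlr7 (0.62, adjusted p = 0.014). Sting1, the adaptor of cytosolic DNA sensing, was called lower (107 ± 4.65 CPM in ATF4OE, 130 ± 11.5 in WT, -0.28, adjusted p = 0.037). In all, 4 of the 19 sensing genes were called, or 21.1% against 14.1% of all tested genes. Tlr7 and Tlr9 also stand on the list of plasmacytoid dendritic cell markers used here. The part of other cells in the calls of sensing genes was not tested.

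Among 98 further interferon-induced genes tested, 13 were called higher and 9 lower over 8 libraries, or 22.4% against the 14.1% of all tested genes, with a median log2 fold change of -0.11. The smallest p-values were those of Ms4a4c, a membrane protein of the MS4A family (22.7 ± 2.19 CPM in ATF4OE, 80.5 ± 14.0 in WT, -1.83, adjusted p = 2.3e-05), Ly6a, a surface antigen of activated T cells and progenitors (30.6 ± 2.70 and 13.9 ± 3.49, 1.14, adjusted p = 0.0023), Ube2l6, the conjugating enzyme for ISG15 (4.36 ± 1.21 and 1.16 ± 0.28, 1.91, adjusted p = 0.0024), and Ifitm2 (23.6 ± 17.8 and 1.50 ± 0.63, 3.97, adjusted p = 0.0038). With the replicate block 18 were called higher and 33 lower, or 52% against 27.2% of all tested genes (13.7% higher and 13.5% lower). Without the 4 libraries with few low counts 4 were called higher and 1 lower. That is 5.15% of 97 tested, under the 9.23% of all tested genes, with the library sets unequally divided between the groups. Of 17 GTPases of the GBP and IRG families, which are induced mainly by interferon gamma, Gbp6 was called higher (0.26, adjusted p = 0.048) and 0 lower. That is 5.88%, under the 14.1% of all tested genes. The replicate block gave 1 higher and 6 lower, or 41.2% against 27.2% of all tested genes. Of 20 genes of MHC class I presentation 0 were called higher and 2 lower over 8 libraries, or 10% against 14.1% of all tested genes. The lower ones were the immunoproteasome subunits Psmb8 (273 ± 11.3 CPM in ATF4OE, 334 ± 12.2 in WT, -0.29, adjusted p = 0.013) and Psmb9 (113 ± 9.59 and 141 ± 5.73, -0.31, adjusted p = 0.021). Of the 20, 18 had a log2 fold change below 0, and under the replicate block 16 were called lower, against 13.5% of all tested genes.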

How the data were processed

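Estimated counts for each gene symbol were deposited by the authors as a single table, from Salmon and the mouse build GRCm38.p6 according to the submitters' processing notes. Salmon divides reads that fit several transcripts by a model, so counts of near copies (Ifit3 and Ifit3b, Oas1a and its neighbours) can shift between them. The sources used here do not give the annotation, strand setting or filters. Libraries were polyadenylated RNA, per the labels. Columns were mapped to samples by library name, and 0 columns were left unused.

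The counts were rounded to whole numbers and tested by edgeR 4.0.16 (R 4.3.3) with its quasi-likelihood method (group as the only term, TMM scaling, filterByExpr, robust), fitted on the whole table of 55291 genes, 16630 of them tested. Calls were made at 0.05 on p-values adjusted by Benjamini-Hochberg over all tested genes. CPM are counts per 1e+06 of the TMM-scaled library size. Errors of fold changes are SE from the F statistic, those of levels SD. Whether replicates are separate mice is not stated, so the p-values reflect only how these samples vary, which may be technical. Libraries of a group differed by a chi-square per degree of freedom of at least 38.5, so none was treated as a repeat. A count of 0 allows up to 3 counts, which covers counting error only.

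Same-numbered samples of the groups deviated together (correlations of 0.199 to 0.289 over 4 pairs), so the replicate number from the titles was used as a block beside the main test. Other numbers of the same library set correlated alike (0.157 to 0.254), so the number cannot be told apart from the set. Alternatives were other scalings and filters, DESeq2 1.42.0, limma-voom (limma 3.58.1), blocks, each set alone, the interaction, and leaving out libraries. The contrast of sets within a group, summed copies and the interaction without single libraries were added after the data were seen. The test was checked on simulated data, with the same spread for every gene and no difference between the sets in WT. That check does not cover the set differences seen in these libraries. The 31 genes and all gene lists were chosen with earlier results of these data known. Values per library are given for genes called over 8 libraries, within a set or with the block, and for 5 regulators. Lists are given as counts and their genes of smallest p, except that some listed genes are not reported here, and any other gene or value was chosen after its values were seen. Coordinates are from GENCODE M21 (GRCm38), promoter windows from RefSeq (GRCm38.p6).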

Additional observations from a re-analysis of the deposited data

Results flagged for a closer look

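The difference between ATF4OE and WT depended on the library set for 3 of the 31 genes, by the interaction of genotype and library set in edgeR's quasi-likelihood test. Ifit1 was at -0.04 in replicates 3 and 4 and at 0.80 in replicates 1 and 2 (adjusted p = 0.044 for the difference). Ifit3 was at -0.28 in replicates 3 and 4 and at 0.62 in replicates 1 and 2 (adjusted p = 0.024). Rsad2 was at 0.01 in replicates 3 and 4 and at 1.08 in replicates 1 and 2 (adjusted p = 0.031). All 3 calls were lost without any 1 of 6 of the 8 libraries, and their adjusted p then lay between 0.051 and 0.184, while the share called over all genes tested was 0.326% to 0.577% in those fits, against 0.998% with all 8 libraries. No library stood far from the others of its group by Dixon's criterion in any of 62 groups of 4 libraries for the 31 genes or in 20 for summed markers, where chance alone gives about 1 in 20. Each group held 2 libraries of each set. Where these pairs stand apart, the criterion cannot flag a single library, so it does not show that none was unusual.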

How the results depend on the processing

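Over the 8 libraries, the counts of 1 gene called higher and 1 lower and the median of 0.14 kept within 1.5 times or within the spread with RLE or upper-quartile scaling, limma-voom, no or a stricter filter, and without each library in turn. DESeq2 called 3 higher (Isg20, Oas1a and Ifi44) and 1 lower. The replicate block gave 4 higher and 3 lower, with calls gained for Zbp1, Oas1a, Oas3, Irf1 and Trim30a, and it changed no other call among the 31 genes. The library set block gave 4 higher and 1 lower. The set without a hyphen gave 9 higher, 0 lower and a median of 0.33, the set with a hyphen 3 higher, 2 lower and a median of -0.0041. Without the 4 libraries with few low counts, which leaves 2 ATF4OE libraries with a hyphen against 1 WT library of each set, 0 were called higher and 0 lower. The interaction count of 3 was 4 with a stricter filter and 0 to 3 when single libraries were left out. Log2 fold changes that turned negative within the set with a hyphen were those of Stat2 (-0.0041), Irf7 (-0.10), Ifit1 (-0.040), Ifit3 (-0.28), Ifit3b (-0.010), Oas2 (-0.27), Oasl2 (-0.10), Mx2 (-0.089) and Parp14 (-0.13). Without the 4 libraries with few low counts those of Irf7 (-0.0086), Ifit3 (-0.076), Oas2 (-0.45), Parp14 (-0.11) and Xaf1 (-0.19) did. Xaf1 was at 0.07 and 0.17 within the sets with and without a hyphen, and lower with the hyphen in both groups (-0.48 in ATF4OE and -0.41 in WT). Parp14 was also at -0.00014 with limma-voom and -0.00026 with the library set block, and Oas1a at -0.073 with its copies summed. Without single libraries Irf7 ranged from -0.0028 to 0.16, Oas2 from -0.077 to 0.26 and Parp14 from -0.044 to 0.064. All of these were uncalled but Ifit3 in the set with a hyphen, and the cause was not tested. All 31 genes had at least 1.04 CPM in every library, and 2 libraries a group and set limit the within-set tests.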
